A study of Mus musculus with 9 samples.

Results

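Islets of female mice were followed at 10 noncoding genes that carry small nucleolar RNAs (snoRNAs) in their introns, Gas5, Snhg1, Snhg3, Snhg4, Snhg5, Snhg6, Snhg7, Snhg12, Snhg15 and Snhg16. They were taken by name from the table of 10706 gene names, and the transcripts of 1 name were summed. All 10 had at least 1 transcript in the table and all 10 passed the minimum for testing, a mean of 0.5 FPKM over the libraries, among 2377 tested loci. FPKM states the fragments of a transcript relative to its length and to the size of the library, so levels of different genes can be set side by side. The groups were 5 libraries of islets from virgin females and 4 of islets from pregnant females at the gestational day that GD14.5 names. The labels used here give no strain, age or treatment, and do not say whether a library pooled animals, so the spread and the p-values below are between libraries and may be technical. RNA was selected on oligo(dT) beads, which hold polyadenylated host transcripts.

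snoRNAs guide the chemical modification of ribosomal and other RNAs. Those with C and D boxes direct ribose methylation, and those with H and ACA boxes direct the change of uridine to pseudouridine. In mammals most are cut from introns of a host transcript, and many noncoding hosts are spliced RNAs that are short-lived because translation leads to their decay. Many hosts begin with a run of pyrimidines like that of ribosomal protein genes, the 5′ TOP motif, which ties their translation to growth signals. Gas5 was found as a transcript that gathers in growth-arrested cells, and pregnancy is a state in which islet beta cells grow and divide.

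RefSeq places 32 snoRNA genes within the spans of the 10 hosts on GRCm38.p6, from 56 to 205 bp long. Gas5 (chromosome 1, 161034601 to 161038539) and Snhg1 (chromosome 19, 8723487 to 8726326) hold 8 each, Snhg12 (chromosome 4, 132308678 to 132311024) holds 4, and Snhg16 (chromosome 11, 116671660 to 116675798) holds 3. Snhg3 (chromosome 4, 132351933 to 132353686), Snhg5 (chromosome 9, 88521052 to 88522897) and Snhg7 (chromosome 2, 26637176 to 26640244) hold 2 each. Snhg4, Snhg6 (chromosome 1, 9942025 to 9944118) and Snhg15 (chromosome 11, 6525591 to 6528760) hold 1 each. The 3 longest of these snoRNAs lie in Snhg3 (Snora73a and Snora73b, 205 bp each) and Snhg4 (Snora74a, 198 bp), and the next is Snora43 of Snhg7 with 139 bp.

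Sequences of the kinds of snoRNA that Gas5 and Snhg3 carry are shown because these hosts, the most abundant of the 10, differed most from each other across the libraries. They are GENCODE transcripts (release M21, GRCm38), written 5′ to 3′ as DNA. Capitals mark the C box letters TGATGA and the D box letters CTGA in Snord47, and the ACA box near the 3′ end of the others.
Snord47 (chr1:161038082-161038158, plus strand): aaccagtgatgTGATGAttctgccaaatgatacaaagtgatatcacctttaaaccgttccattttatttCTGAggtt
Snora73a (chr4:132352775-132352979, minus strand): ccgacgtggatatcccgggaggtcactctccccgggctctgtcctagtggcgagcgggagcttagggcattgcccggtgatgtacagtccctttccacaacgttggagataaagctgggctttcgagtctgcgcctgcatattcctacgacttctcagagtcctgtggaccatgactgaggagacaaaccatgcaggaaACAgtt
Snora73b (chr4:132352322-132352526, minus strand): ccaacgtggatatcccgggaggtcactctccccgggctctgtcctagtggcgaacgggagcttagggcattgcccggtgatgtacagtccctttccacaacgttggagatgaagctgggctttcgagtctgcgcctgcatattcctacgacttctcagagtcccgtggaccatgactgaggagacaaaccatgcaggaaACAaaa
Snora73a and Snora73b are identical at 198 of 205 aligned bases (96.6%).

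Promoter sequences were matched for 8 of the 10 genes, with 9 annotated starts, in RefSeq (GRCm38.p6). Of the 9 starts 6 are shown, from 45 bases before the annotated start to its 30th base. They are shown because features of the start are what several of these hosts share apart from the snoRNAs. Not shown are the other Gas5 start and that of Snhg15, which had neither feature marked below. The Snhg16 start, also not shown, had the pyrimidine run and no TATA. Capitals mark the letters TATA where they begin 40 to 20 bases before the start, and a C followed by at least 4 bases that are each C or T within 20 bases of the start on either side.
Gas5 (chr1:161035121-161035195, plus strand): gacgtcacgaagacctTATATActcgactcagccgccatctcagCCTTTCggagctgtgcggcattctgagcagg
Snhg12 (chr4:132308633-132308707, plus strand): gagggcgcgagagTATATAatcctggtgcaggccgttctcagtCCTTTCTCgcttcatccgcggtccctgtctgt
Snhg7 (chr2:26640215-26640289, minus strand): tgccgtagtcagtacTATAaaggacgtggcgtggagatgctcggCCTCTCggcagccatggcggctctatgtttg
Snhg5 (chr9:88522868-88522942, minus strand): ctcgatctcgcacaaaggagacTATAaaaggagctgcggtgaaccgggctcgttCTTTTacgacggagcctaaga
Snhg1 (chr19:8723442-8723516, plus strand): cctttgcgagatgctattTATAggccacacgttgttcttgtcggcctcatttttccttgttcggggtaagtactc
Snhg3 (chr4:132353657-132353731, minus strand): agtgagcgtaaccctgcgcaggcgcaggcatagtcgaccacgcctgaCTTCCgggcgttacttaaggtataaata
Read on the gene's strand, TATA stood in that range at 5 of the 9 starts, those of Snhg12, Snhg7, Snhg5, Snhg1 and 1 of the 2 starts of Gas5, against 5.81% of all 32851 promoters of the same length. The pyrimidine run was found at 6 of the 9 against 48.2% of all promoters. TATA and the run stood together at 4 of the 9 against 2.91%. At the Gas5, Snhg7 and Snhg12 starts shown, the run begins 1 or 2 bases before the annotated start. The Snhg3 window holds TATA after the annotated start, outside the range searched.

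The labelled tissue could not be checked against its markers. Of 43 marker genes of endocrine, acinar, ductal, endothelial, immune and stromal cells, 3 had a transcript in the table (Ttr, Sox9 and Col1a1). Their level was at most 0.01 FPKM in any library. The islet hormone genes among the markers had no transcript in the table. Most coding names looked up were missing too, and of 51 coding snoRNA hosts 1 had a transcript. The missing markers therefore describe the table and cannot be read as absence from the tissue. Depth is unknown for every library. The summed FPKM of all names ran from 5415 to 20531, with 14636 to 20531 in the upper 3 libraries (virgin 4, virgin 5 and GD14.5 4) against 5415 to 10689 in the other 6 libraries. In bulk tissue, fewer cells of a type and less RNA per cell cannot be told apart.

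Snhg3 was the most abundant host by its mean, 65.5 FPKM over the 9 libraries and 12th among the 10706 names. Its FPKM was 37.3, 89.9, 80.1, 56.7 and 47.7 in virgin 1 to 5 and 76.5, 84.4, 72.9 and 43.8 in GD14.5 1 to 4. The groups overlapped, and the lowest values were those of virgin 1, GD14.5 4 and virgin 5. Gas5 followed with a mean of 51.7 FPKM, 17th of the table. Its FPKM was 28.1, 40.1, 16.6, 104 and 64.6 in virgin 1 to 5 and 43.6, 37.6, 34.6 and 96.1 in GD14.5 1 to 4. Here the 3 highest values were those of virgin 4, GD14.5 4 and virgin 5, the libraries of highest summed FPKM. The order of these hosts therefore turned between libraries. Snhg3 was above Gas5 in the other 6 libraries, where Gas5 stood at 0.207 to 0.755 of the Snhg3 level, and below it in those 3, where Gas5 stood at 1.36 to 2.19 times the Snhg3 level.

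Snhg1 and Snhg12 formed a second tier. Snhg1, whose introns release a series of C/D snoRNAs, was at 5.67, 8.71, 4.28, 19.5 and 16.0 FPKM in virgin 1 to 5 and at 9.27, 7.04, 6.33 and 12.5 in GD14.5 1 to 4. Snhg12, which carries snoRNAs of both classes, was at 5.20, 8.66, 4.16, 16.7 and 14.1 in virgin 1 to 5 and at 8.58, 6.98, 6.21 and 14.1 in GD14.5 1 to 4. Snhg1 was the higher of this pair in 8 of 9 libraries by a margin far below the spread between libraries, and Gas5 was above Snhg1 in 9 of 9.

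Snhg4 (chromosome 18, 35553410 to 35558316), with the H/ACA snoRNA Snora74a, was at 2.41, 9.30, 6.85, 7.91 and 7.71 FPKM in virgin 1 to 5 and at 5.74, 8.55, 7.68 and 6.21 in GD14.5 1 to 4. Virgin 1 stood lowest, and the other 8 libraries lay within 5.74 to 9.30. Snhg6, host of Snord87, was at 3.83, 5.54, 2.93, 8.05 and 10.6 in virgin 1 to 5 and at 7.27, 7.02, 5.05 and 9.38 in GD14.5 1 to 4. Snhg12 was above Snhg4 in 5 of 9 libraries and Snhg4 above Snhg6 in 4 of 9, so these neighbours in the order did not differ beyond their spread.

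Snhg7, Snhg5 and Snhg16 had means of 3.75, 3.05 and 2.83 FPKM. Snhg7, with 2 H/ACA snoRNAs, was at 1.54, 3.39, 2.66, 6.08 and 7.75 in virgin 1 to 5 and at 1.83, 2.83, 2.30 and 5.37 in GD14.5 1 to 4. Snhg5, host of Snord50a and Snord50b, ranged from 1.63 to 4.64 FPKM in virgin and from 2.12 to 3.58 at GD14.5. Snhg16, with 3 members of the Snord1 family, ranged from 1.90 to 4.02 and from 1.93 to 3.97. Snhg7 was above Snhg5 in 6 of 9 libraries and Snhg5 above Snhg16 in 5 of 9. Snhg15, which carries Snora9, was the least abundant, at 1.35, 2.21, 0.760, 1.80 and 1.78 in virgin 1 to 5 and at 1.91, 1.54, 1.78 and 3.83 in GD14.5 1 to 4. It was below Snhg16 in 9 of 9 libraries, and its highest value was that of GD14.5 4.

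**Figure D1:**
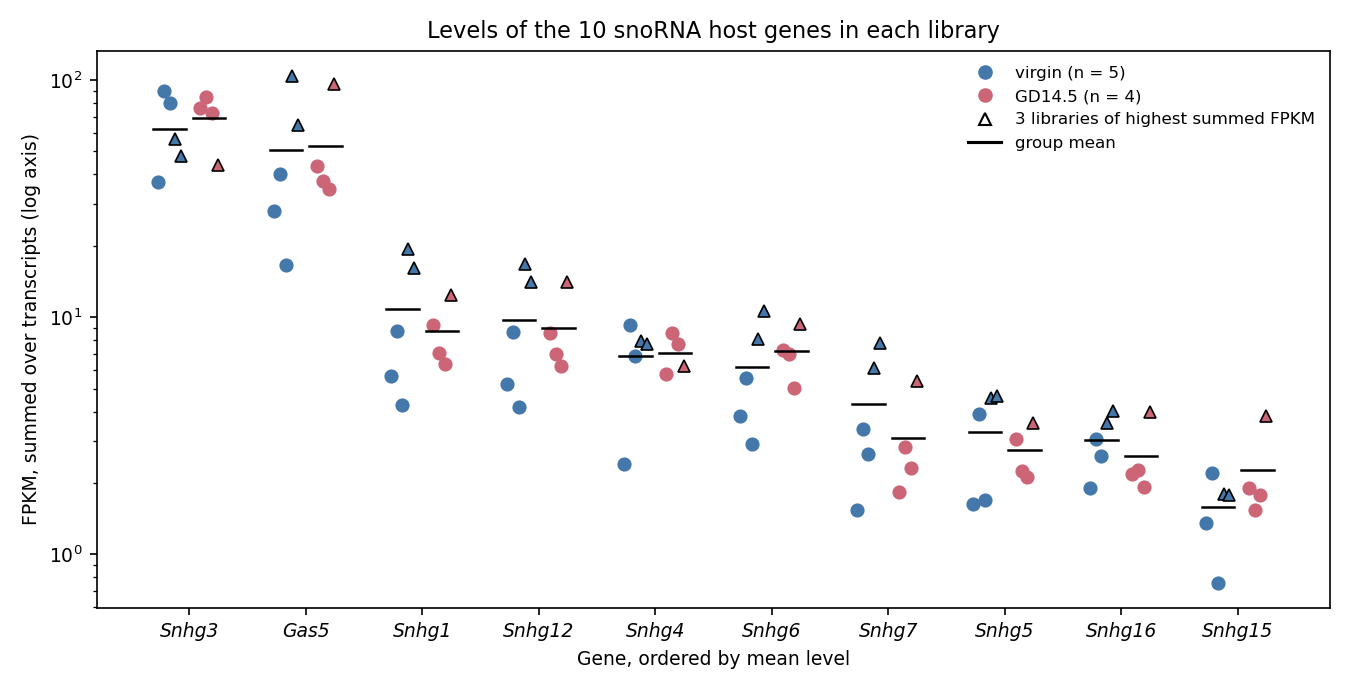
FPKM of the 10 snoRNA host genes in each library on a log axis, with virgin (n = 5) in blue, GD14.5 (n = 4) in red, group means as bars and the 3 libraries of highest summed FPKM as triangles. The triangles lie at the top of Gas5 (64.6 to 104 FPKM, against at most 43.6 in the other libraries) and in the lower part of Snhg3 (43.8 to 56.7 FPKM, against up to 89.9).

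The 10 genes together held 88.9 to 229 FPKM in virgin libraries and 141 to 199 at GD14.5. As a share of the summed table the mean was 1.44% ± 0.371 over the 5 virgin and 1.88% ± 0.461 over the 4 GD14.5 libraries (SD), with ranges of 0.872% to 1.78% and 1.36% to 2.46% that overlap. Snhg3 made up 22.0% to 26.6% of the 10-gene sum in virgin 4, virgin 5 and GD14.5 4 and 41.9% to 65.3% in the other 6 libraries.

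Among the 10 genes, 6 (Gas5, Snhg1, Snhg12, Snhg6, Snhg7 and Snhg16) were higher in each of virgin 4, virgin 5 and GD14.5 4 than in any of the other 6 libraries. Over all tested loci the same held for 62.1%, so this follows the table. Setting the mean of those 3 libraries against the mean of the other 6, the ratio was 1.55 to 2.64 for the 8 genes other than Snhg3 and Snhg4. It was 1.08 for Snhg4 and 0.672 for Snhg3. The summed FPKM of all names had a mean of 17806 in those 3 libraries and 7646 in the other 6. The same ratio for each tested locus is not given here. The libraries were put together here by their summed FPKM, so these ratios are descriptions without a test. What sets those libraries apart was not tested.

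To compare patterns apart from library level, the median of log2(FPKM + 0.5) over tested loci was removed from each library and each gene was centred on its own mean. The spread of a gene over the libraries (SD on the log2 scale) had a median of 0.54 for the 10 genes before this step and 0.36 after it, against 0.59 and 0.27 over all tested loci. Likeness was measured as the root-mean-square difference of 2 such profiles over the 9 libraries, where a small value means a like pattern.

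Snhg1 and Snhg12 were the most alike pair of the 10, with a difference of 0.11 on the log2 scale. That is below the difference of Snhg1 from each of 786 loci outside the group with at least 2 FPKM, of which the nearest was Usp24 at 0.16, and below that of Snhg12, nearest Taok3 at 0.16. Their profiles were lowest in virgin 3 (−0.69 and −0.67) and high in GD14.5 1 (0.44 and 0.40). Gas5 had its lowest value in virgin 3 too (−1.12) and its highest in GD14.5 4 (0.73), and it lay 0.24 from Snhg12. The locus outside the group nearest to Gas5 was 1810019D21Rik, at 0.26. For Snhg3, Snhg4, Snhg5, Snhg6, Snhg7, Snhg15 and Snhg16 the nearest locus outside the group was nearer than any other member. For Snhg7 that locus lay at 0.083, below the 0.11 of Snhg1 and Snhg12, and the nearest member, Snhg16, at 0.35.

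Snhg3 stood farthest from the mean profile of the 10, at 0.64, and its nearest member was Snhg4 at 0.38. After removal of library medians Snhg3 was at −0.81, −1.24 and −0.88 in virgin 4, virgin 5 and GD14.5 4, and between −0.12 and 0.73 in the other 6 libraries. Snhg4 was at −0.42, −0.63 and −0.44 in the same 3 libraries and between 0.21 and 0.66 in the others except virgin 1, at −0.66. Snhg3 and Snhg12 lie 40.9 kb apart on chromosome 4, and their profiles differed by 0.86. The locus outside the group nearest to Snhg3 was 5730408K05Rik at 0.22 (chromosome 19, 8888387 to 8888770), which RefSeq also lists with a snoRNA inside it, Snora57 of 150 bp. Its FPKM was 1.65, 2.46, 2.98, 1.58 and 1.54 in virgin 1 to 5 and 2.71, 2.77, 2.44 and 1.73 in GD14.5 1 to 4. It, Usp24, Taok3 and 2410006H16Rik are named here after their values were seen.

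The 5 loci nearest to the mean profile of the 10 were Foxk1 (0.096), Zfas1 (0.11), Tmbim6 (0.15), Lsm14b (0.15) and Gm19497 (0.16), where the median over the 786 candidates was 0.40. Zfas1 is itself a snoRNA host, with 3 snoRNA genes inside it. Foxk1, Tmbim6 and Lsm14b are names of coding genes, whose transcripts in this table are of unknown identity. Of the 10 loci nearest to the single members, 3 (Zfas1, 5730408K05Rik and 2410006H16Rik) hold a snoRNA gene, against 33 of the 785 candidates with a RefSeq position.

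**Figure D2:**
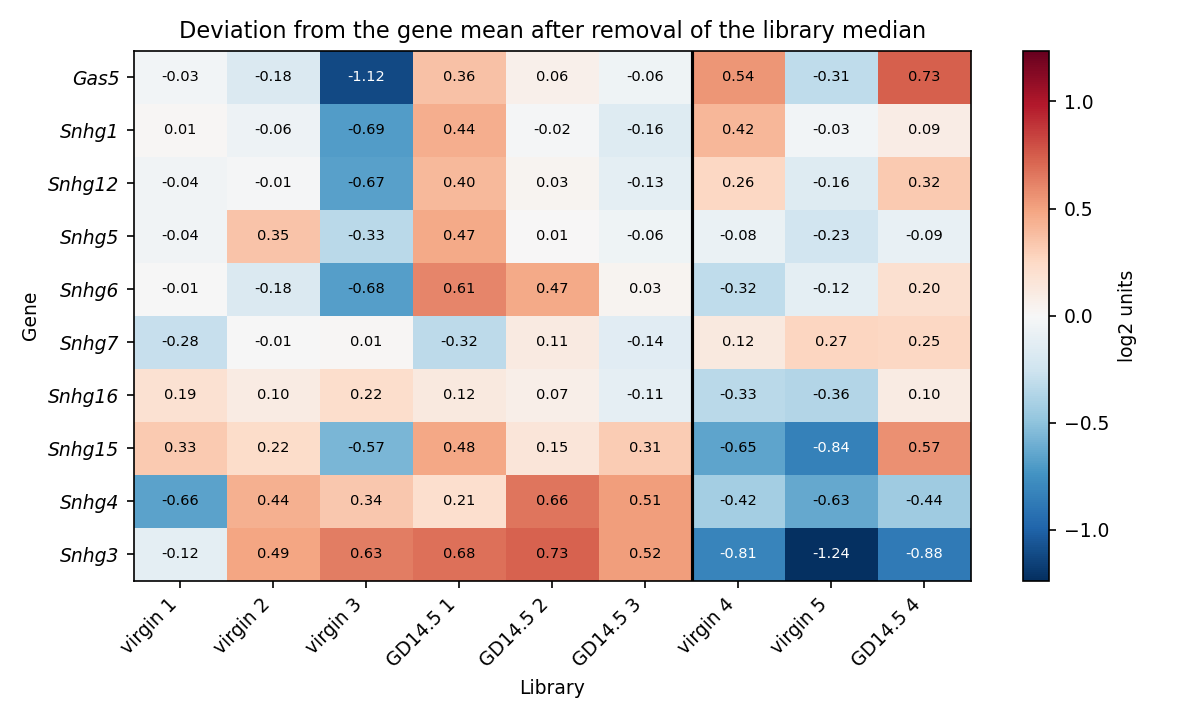
Deviation of log2(FPKM + 0.5) from each gene's mean after removal of the library median, in log2 units, for 10 genes (rows) and 9 libraries (columns), with virgin 4, virgin 5 and GD14.5 4 right of the line. Snhg3 is at −0.81 to −1.24 right of the line, while Gas5 is at 0.54 and 0.73 in virgin 4 and GD14.5 4 and at −0.31 in virgin 5.

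The table held 75 transcript lines for the 10 genes, 25 of them with a mean of at least 0.5 FPKM and 5 at 0 in every library. Transcripts carry no identifier, so they are numbered within a gene by their mean level. Snhg5 had 21 lines, of which 1 reached that mean, and Gas5 had 15, of which 7 did. Snhg15 had a single line.

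In Snhg3 and Snhg4 the balance of the first transcript and the second differed between the libraries. Transcript 1 of Snhg3 was at 35.0, 86.1, 77.2, 41.8 and 32.0 FPKM in virgin 1 to 5 and at 73.0, 79.6, 70.2 and 37.0 in GD14.5 1 to 4. Transcript 2 was at 2.11, 3.40, 2.63, 14.0 and 15.1 in virgin 1 to 5 and at 3.26, 4.63, 2.40 and 6.21 in GD14.5 1 to 4. The share of transcript 1 was 93.9% to 96.4% in 6 libraries and 67.2%, 73.8% and 84.4% in virgin 5, virgin 4 and GD14.5 4.

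Snhg4 showed the same split. Its transcript 1 was at 1.79, 7.54, 5.77, 4.32 and 2.89 FPKM in virgin 1 to 5 and at 4.68, 7.46, 6.61 and 3.06 in GD14.5 1 to 4. Its transcript 2 was at 0.370, 1.14, 0.80, 2.78 and 4.08 in virgin 1 to 5 and at 0.590, 0.820, 0.780 and 2.47 in GD14.5 1 to 4. The ratio of transcript 2 to transcript 1 was 0.644 to 1.41 in virgin 4, virgin 5 and GD14.5 4, above the 0.110 to 0.207 of the other 6 libraries. For Snhg3 that ratio was 0.168 to 0.473 against 0.0341 to 0.0603. A ratio within a gene and library does not depend on the scaling of the library, and it shows unequal change of the transcripts without showing which one moved. How often transcripts of other genes split this way between these libraries is not given here. The split therefore cannot be called particular to Snhg3 and Snhg4.

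Among transcripts with a mean of at least 0.5 FPKM, no share in the other hosts set those 3 libraries apart from the other 6. Below that level 4 transcripts did, named after their values were seen, the tenth of Gas5, the fifth of Snhg12, the ninth of Snhg5 and the eighth of Snhg16. For these too, no share over all transcripts of the table is given. The fifth of Snhg12 took 4.47% to 12.9% of its gene against 0% to 3.61%, and the ninth of Snhg5 took 10.3% to 12.9% against 0% to 4.12%. In Snhg1 transcript 1 took 76.4% in virgin 3 and 81.1% in virgin 5 and 53.8% to 67.0% elsewhere. In Snhg12 transcript 1 took 26.9% and 30.1% in virgin 3 and virgin 5, and 44.8% to 60.8% in the other 7 libraries. In Gas5 the first 2 transcripts took 35.3% to 48.3% and 34.7% to 48.2% of the gene, and their order turned between libraries. Transcript 1 stood at 0.733 of transcript 2 in GD14.5 1 and at 1.33 times it in GD14.5 4. In Snhg6 transcript 1 took 72.3% to 90.3%, and in Snhg7 it took 94.1% to 98.7%.

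**Figure D3:**
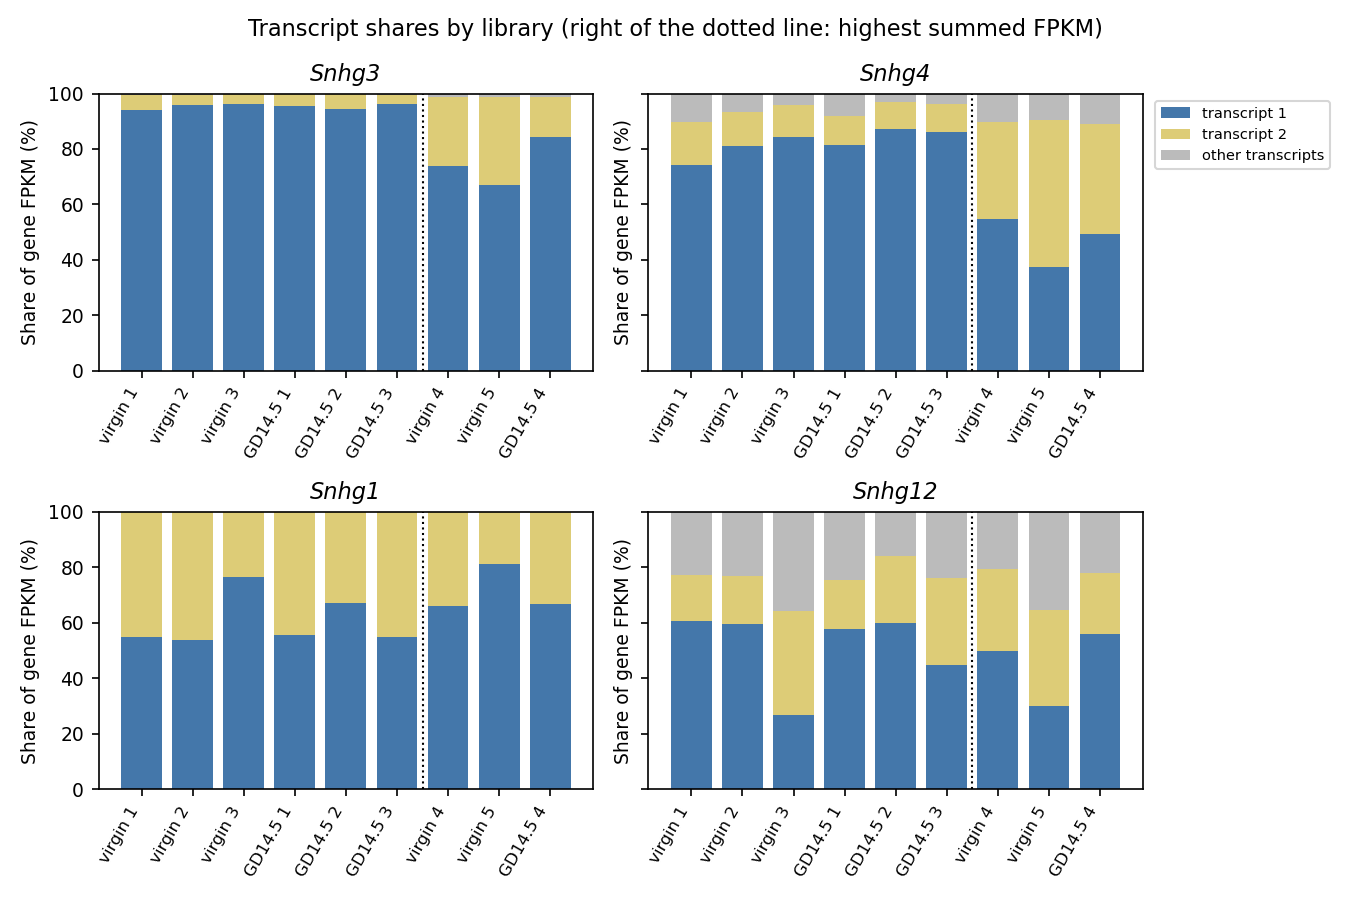
Share of the summed FPKM of Snhg3, Snhg4, Snhg1 and Snhg12 taken by transcript 1, transcript 2 and all other transcripts in each of 9 libraries, with virgin 4, virgin 5 and GD14.5 4 right of the dotted line. In Snhg4 transcript 1 takes 37.5% to 54.6% right of the line and 74.3% to 87.3% left of it.

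The design compares GD14.5 with virgin islets. None of the 10 genes passed the threshold in limma's test over all 2377 loci, where 4 loci did (0.168%), and in none did the groups fail to overlap, which held for 0.589% of loci. At an unadjusted p under 0.05 there were 0 of the 10, against 2.52% of loci. The adjusted p of the 10 genes lay between 0.817 and 0.996 in limma. Since the median log2 fold change of all tested loci was −0.30, a gene at that value lay in the middle of the table. The log2 fold changes of the 10 genes ran from −0.33 to 0.39 with a median of 0.07, 9 of the 10 were above the median of the table, and 5 were above 0.

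Snhg3 had means of 62.3 ± 22.1 FPKM in the 5 virgin and 69.4 ± 17.7 in the 4 GD14.5 libraries (SD), which on the log2 scale is a fold change of 0.19 with SE 0.55 and a 95% interval of −0.96 to 1.33. Gas5 was at 50.7 ± 34.7 and 53.0 ± 29.0 FPKM, with 0.21 ± 0.62 (95% interval −1.07 to 1.49). Both intervals leave room for a rise and for a fall. The highest fold change was that of Snhg15, 1.58 ± 0.550 and 2.27 ± 1.05 FPKM, at 0.39 ± 0.39 (SE). GD14.5 4 alone was above all virgin libraries, and without it the value was 0.15, below those of Snhg3 (0.39), Snhg4 (0.19) and Snhg6 (0.17). The lowest was that of Snhg7, 4.28 ± 2.56 and 3.08 ± 1.58 FPKM, at −0.33 ± 0.48 (SE).

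Snhg1 (10.8 ± 6.63 and 8.77 ± 2.75 FPKM), Snhg12 (9.76 ± 5.48 and 8.96 ± 3.55), Snhg5 (3.28 ± 1.51 and 2.75 ± 0.693) and Snhg16 (3.03 ± 0.830 and 2.59 ± 0.934) had log2 fold changes of −0.12, −0.0047, −0.14 and −0.20 (SE 0.41 to 0.54). Snhg4 was at 6.84 ± 2.63 and 7.05 ± 1.30 FPKM with 0.14 ± 0.49 (SE). Within the 6 libraries of lower summed FPKM, GD14.5 1 to 3 differed from virgin 1 to 3 by 0.52 for Gas5, 0.27 for Snhg3 and −0.07 for Snhg7 on the log2 scale. Between GD14.5 4 and the mean of virgin 4 and 5 the differences were 0.23, −0.24 and −0.33. The sign differed between these sets for 6 of the 10 genes (Snhg1, Snhg3, Snhg4, Snhg5, Snhg12 and Snhg16). The second difference rests on 1 GD14.5 library, and this was not tested.

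Snhg6 came nearest to the threshold under alternative fits. Its mean FPKM was 6.19 ± 3.14 over 5 virgin and 7.18 ± 1.77 over 4 GD14.5 libraries (SD). Snhg6 was higher at GD14.5 in 4 of 4 same-numbered pairs, a pairing that the labels do not state. The other genes of the 10 were higher in 1 to 3 of these pairs. No share of all loci at 4 of 4 is given here, so the count is a description only. The log2 fold change of Snhg6 was 0.30 ± 0.49 (SE; limma adjusted p = 0.820), with a 95% interval of −0.72 to 1.32. With the replicate number as a block it was 0.52 ± 0.22 (95% interval 0.039 to 0.99; limma adjusted p = 0.487), and on equal library medians 0.59 ± 0.18 (0.18 to 1.00; limma adjusted p = 0.325). With the block on equal medians it was 0.62 ± 0.093 (0.39 to 0.86; limma adjusted p = 0.0706). It therefore failed the correction over all loci in each of these fits. Over all alternatives its limma adjusted p lay between 0.0706 and 1.00. At an unadjusted p under 0.05 and in the direction higher at GD14.5, the blocked fit listed 1 of the 10 genes, Snhg6, and 3.49% of loci (9.3% in either direction). On equal medians it was 2 of the 10, Snhg6 and Snhg15, and 4.88% of loci (8.54% in either direction). The block on equal medians listed 2 of the 10, Gas5 and Snhg6, and 7.7% of loci. On equal summed FPKM and after quantile normalization Snhg6 and Snhg15 were listed, with 3.53% and 5.3% of loci. With the block 26 loci (1.09%) passed the threshold on equal medians 23 (0.968%) and with both 15 (0.631%), on equal summed FPKM 1.3% and after quantile normalization 1.22%, and none of the 10 genes was among them. Scaling moved directions: 9 of the 10 were above 0 on equal medians, the exception being Snhg7 at −0.05, and their median was 0.35, where the median of the table was −0.02.

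**Figure D4:**
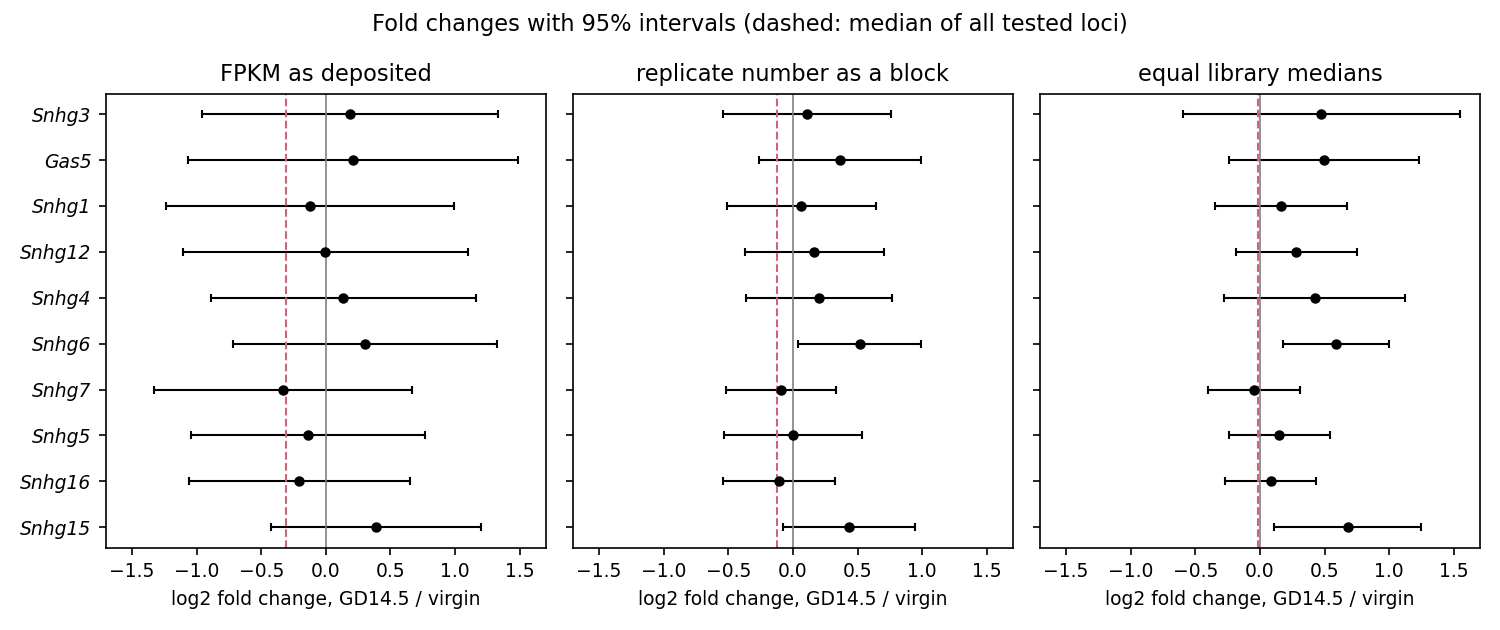
Fold changes (log2, GD14.5 over virgin) of the 10 genes with 95% intervals from limma, for FPKM as deposited, with the replicate number as a block and on equal library medians. The dashed lines mark the median of all tested loci, at −0.30, −0.13 and −0.02, and the intervals that exclude 0 are those of Snhg6 with the block and of Snhg6 and Snhg15 on equal medians.

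Use of transcripts was tested in the same way on the log2 ratio of a transcript to the rest of its gene. Of 754 transcripts in 351 genes, 7 passed the threshold (0.928%; 0 without virgin 2 or without GD14.5 4, 1 without virgin 3 and 4 without GD14.5 3), and 0 of the 23 that belong to the 10 hosts did. At an unadjusted p under 0.05 there was 1 of 23, the fifth transcript of Gas5, against 8.36% of all. With the block there were 3 of 23 (the fifth of Gas5, the fourth of Snhg12 and the third of Snhg6), against 11.1% of all, and 0 passed the correction. The log2 difference of the Gas5 transcript without the block was −0.70 ± 0.31 (SE; limma adjusted p = 0.587). For transcript 1 of Snhg3 the difference between groups was 0.73 ± 0.81 (SE) and for transcript 1 of Snhg4 0.66 ± 0.64, both within the spread of the libraries, since virgin 4 and 5 and GD14.5 4 lie in either group. With the block these values were 0.24 ± 0.26 and 0.28 ± 0.20.

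Other noncoding snoRNA hosts were read from a list of 12 (Snhg8, Snhg9, Snhg10, Snhg11, Snhg14, Snhg17, Snhg18, Snhg20, Zfas1, Dancr, Epb41l4aos and Rian), and all 12 were tested. None passed the threshold, with adjusted p between 0.817 and 0.957 in limma and log2 fold changes from −1.51 to 0.14 with a median of −0.17. Above the median of the table were 7 of the 12. Dancr, at 2.26 ± 1.35 and 2.40 ± 0.990 FPKM, had the highest of these (0.14 ± 0.43, SE). Zfas1, whose introns release snoRNAs of the Snord12 group, was at 10.2 ± 3.71 and 10.4 ± 1.87 FPKM (0.08 ± 0.50). Rian, the imprinted host of a large snoRNA cluster, was at 99.9 ± 74.1 and 71.3 ± 51.6 FPKM (−0.37 ± 0.65). Snhg20 was at 23.0 ± 16.4 and 13.6 ± 8.39 FPKM (−0.59 ± 0.60), and Snhg14, the long host next to Ube3a, at 9.87 ± 6.57 and 5.97 ± 2.85 FPKM (−0.52 ± 0.54).

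Snhg9 had the lowest value, −1.51 ± 0.59 (SE; limma adjusted p = 0.817). It was listed at 1.73, 2.81, 1.15, 10.5 and 3.71 FPKM in virgin 1 to 5 and at 0, 2.23, 3.00 and 0 in GD14.5 1 to 4, so the value rests on 2 libraries listed at 0. Snhg8, Snhg10, Snhg11, Snhg17, Snhg18 and Epb41l4aos had log2 fold changes of −0.18, −0.35, −0.07, −0.15, 0.11 and −0.09. Of 51 coding snoRNA hosts 1 was tested, Wdr43, and it did not pass. Wdr43, named after its values were seen, was at 3.04, 3.38, 1.75, 0 and 0 FPKM in virgin 1 to 5 and at 0, 0, 0.52 and 0 in GD14.5 1 to 4, with −1.33 ± 0.52 (SE) on the log2 scale and a limma adjusted p of 0.817. Without virgin 4, virgin 5 and GD14.5 4 it passed (−2.31 ± 0.31, limma adjusted p = 1.3e-07), and with the block it did not (−1.73 ± 0.39, limma adjusted p = 0.0579). Of 14 snoRNP protein genes and 10 factors of nonsense-mediated decay none had a transcript in the table, and of 11 regulators of TOP and ribosome genes 1 was tested and did not pass. Of 11 genes known to respond in islets of pregnant mice 3 were tested and 2 rose, in both the unblocked and the blocked fit. This list was chosen with earlier results of these data known, so the rises are no independent check. As with other coding names here, the identity of the transcripts under these names is unknown. Cish, a target of prolactin signalling, was at 2.97 ± 0.989 and 29.1 ± 10.8 FPKM, 3.07 ± 0.49 on the log2 scale with a limma adjusted p = 0.00207, and Ivd, an enzyme of leucine breakdown, at 0.210 ± 0.305 and 12.6 ± 3.68 FPKM (4.26 ± 0.41 on the log2 scale; limma adjusted p = 9.04e-07). The third, Lrrc55, was listed at 0 in all 4 GD14.5 libraries and at 0, 0.02, 0, 2.06 and 3.43 FPKM in virgin 1 to 5, and did not pass (limma adjusted p = 0.817, unadjusted p = 0.0401).

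Reads of overlapping genes limit several members. Gas5 overlaps Zbtb37, Snhg3 Rcc1, Snhg4 Gm28285, Snhg6 Mcmdc2 and Snhg16 St6galnac2. No source used here gives the strand setting, so signal of an opposite-strand neighbour cannot be told apart from that of the host.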

How the data were processed

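Islet RNA was sequenced in bulk in 5 virgin and 4 GD14.5 libraries. The authors deposited FPKM per transcript, rounded to 2 decimals, each named by its gene alone. Per the submitters' processing notes the genome was GRCm38.p6. Aligner, quantifier, annotation and strandedness were not given in the sources used here. Depth is unknown. Of 26375 lines, 480 with a copy suffix were left out, and lines of 1 name were summed to 10706 names. The members and gene lists were chosen with earlier results of these data known.

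The 2377 loci with a mean of at least 0.5 FPKM were tested with limma 3.58.1 (R 4.3.3) after log2(FPKM + 0.5) (variance trend, two-sided, Benjamini-Hochberg over all loci, threshold 0.05). This scale understates changes of low genes. Transcript use was tested as log2((transcript + 0.5)/(rest of the gene + 0.5)) where each had a mean of at least 0.5 FPKM. The fit was tested on simulated data with less spread than these libraries, large planted changes and no shift shared by a library. That run does not measure power or error rates of the fit on these data. Named were the 10 members, every tested gene of the list of other hosts, genes past the threshold in other lists, the 5 loci nearest to the members' mean profile and the locus nearest to Gas5. Alternatives were pseudocounts, filters, scalings, the block, left-out libraries, kept suffix lines and no variance trend. Positions, snoRNAs and promoters are from RefSeq, and snoRNA sequences from GENCODE.

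Same-numbered libraries deviated together on FPKM as deposited, with correlations of 0.49, 0.20, 0.28 and 0.59 across loci, all above 0.1. The replicate number was therefore used as a block in alternative fits. These correlations come from the values that are tested, so they cannot establish a pairing. The labels do not state one, and some differently numbered libraries correlated as well. Above 0.1 were virgin 5 with GD14.5 4 at 0.49, virgin 3 with GD14.5 2 at 0.25 and virgin 2 with GD14.5 1 at 0.23. So were virgin 2 with GD14.5 3 at 0.18 and virgin 1 with GD14.5 3 at 0.14. The values 0.25 and 0.23 are above the 0.20 of virgin 2 with GD14.5 2. Virgin 5, without a partner, adds nothing to blocked fold changes.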

Additional observations from a re-analysis of the deposited data

Results flagged for a closer look

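Dixon's test was run on 22 sets of values, the 10 genes and their sum in each group. It set 1 library apart, and about 1.1 would be set apart by chance. This was Snhg4 in virgin 1, at 1.54 on the log2(FPKM + 0.5) scale against 2.88 to 3.29 in the other 4 virgin libraries. Virgin 1 also had the lowest summed FPKM of the 9 libraries (5415).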

How the results depend on the processing

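None of the 10 genes and none of their transcripts passed the threshold under any alternative run, all of them with limma. The adjusted p of Gas5 ranged from 0.314 to 1.00 and that of Snhg6 from 0.0706 to 1.00. The median log2 fold change of the 10 genes, 0.07 as reported, ran from −0.18 (without virgin 3) to 0.35 (equal library medians). The count of loci called higher, 4 as reported, was 22 with equal library medians, 25 with equal summed FPKM, 24 after quantile normalization, 23 with the replicate block, 15 with the replicate block on equal medians and 17 without virgin 4, virgin 5 and GD14.5 4. The count called lower, 0 as reported (34 at an unadjusted p under 0.05), was 1, 6, 5 and 3 in the first 4 of these and 4 without the 3 libraries. The count of transcripts with changed use went from 7 to 2 with a minimum of 2 FPKM. The causes were not tested. Several fold changes turned positive without reaching the threshold. With a pseudocount of 0.1, the log2 fold change was 0.0016 for Snhg12. With equal library medians, log2 fold changes were 0.16 for Snhg1, 0.15 for Snhg5, 0.28 for Snhg12, 0.083 for Snhg16, 0.10 for Snhg8, 0.22 for Snhg11, 0.13 for Snhg17 and 0.19 for Epb41l4aos. With equal summed FPKM, log2 fold changes were 0.15 for Snhg1, 0.12 for Snhg5, 0.27 for Snhg12, 0.025 for Snhg16, 0.088 for Snhg8, 0.20 for Snhg11, 0.096 for Snhg17 and 0.15 for Epb41l4aos. With quantile normalization, log2 fold changes were 0.14 for Snhg1, 0.16 for Snhg5, 0.28 for Snhg12, 0.056 for Snhg16, 0.037 for Snhg8, 0.22 for Snhg11, 0.13 for Snhg17 and 0.19 for Epb41l4aos. With the replicate block, log2 fold changes were 0.066 for Snhg1, 0.00062 for Snhg5, 0.17 for Snhg12, 0.27 for Snhg11, 0.057 for Snhg17 and 0.010 for Epb41l4aos. With the replicate block and equal medians together, log2 fold changes were 0.17 for Snhg1, 0.11 for Snhg5, 0.015 for Snhg7, 0.27 for Snhg12, 0.00096 for Snhg16, 0.38 for Snhg11, 0.16 for Snhg17, 0.12 for Epb41l4aos and 0.083 for Rian. Without virgin 4, virgin 5 and GD14.5 4, log2 fold changes were 0.30 for Snhg1, 0.10 for Snhg5, 0.30 for Snhg12, 0.063 for Snhg8, 0.51 for Snhg11 and 0.088 for Snhg17. Leaving out each library in turn gave log2 values of −0.17 to 0.27 for Snhg4, −0.051 to 0.24 for Zfas1, −0.060 to 0.37 for Dancr, −0.23 to 0.074 for Epb41l4aos, −0.12 to 0.53 for Gas5, −0.13 to 0.30 for Snhg18, −0.38 to 0.13 for Snhg1, −0.24 to 0.23 for Snhg12, −0.40 to 0.055 for Snhg8, −0.56 to 0.39 for Snhg11, −0.32 to 0.00062 for Snhg5, −0.36 to 0.057 for Snhg17 and −0.20 to 0.053 for Gas5 transcript 1 use. It gave 3 to 6 loci higher, 0 to 1 lower, and 0 to 6 transcripts with changed use, with 0 without virgin 2 or GD14.5 4, 1 without virgin 3 and 4 without GD14.5 3. The 1 locus lower appeared without virgin 4, GD14.5 1 or GD14.5 4. With the block no call on the 10 genes changed. The precision is limited by the number of libraries, and depth is unknown.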
